A study of Rattus norvegicus with 8 samples.

Results

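The lungs of rats held for 12 h at a simulated altitude of 30000 ft were compared with the lungs of rats at 0 h of exposure, on 2 of the 8 arrays of the series. One array carried RNA from rats given saline for 7 days beforehand, and the other carried RNA from rats given cobalt (12.5 mg/kg) for 7 days. Each array paired the 12 h RNA with 0 h RNA of the same pretreatment, so the control rats had the saline or cobalt as well. The other 6 arrays held 6, 24 and 48 h of exposure, again 1 array for each pretreatment. The labels give no strain, sex or age of the rats and do not say how many rats gave the RNA of an array.

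Hypobaric hypoxia lowers the oxygen that reaches the blood through the lung. Cells answer low oxygen through the HIF transcription factors, which raise genes of glycolysis, glucose uptake and vessel growth. Cobalt is widely used to mimic this response, because it stabilises HIF. Cells whose proteins misfold answer through the heat shock factor and the unfolded protein response, which raise chaperones of the cytosol and of the endoplasmic reticulum.

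Values are log2 ratios of hypoxia over 0 h, so that 1 is a 2-fold higher and -1 a 2-fold lower signal after 12 h. The hypoxia RNA was labelled with Cy5 on the saline arrays and with Cy3 on the cobalt arrays, and the ratios were turned to one direction. Because the arrays of one pretreatment share a slide, a scan and a dye orientation, pretreatment cannot be told apart from these, and a gene that is high on one 12 h array and low on the other may carry a dye effect, which was not tested. A comparison of 12 h with the other durations of the same pretreatment shares dye, slide and 0 h RNA. The 12 h samples lay at the same position on both slides, so duration and position cannot be told apart either. The label of the saline 12 h RNA carries the letter a where the other saline samples carry b, and the labels do not say what the letters mean.

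Of 45018 spots per array, 57.7% to 72.7% of the non-control spots were well above background in the hypoxia channel, with the cobalt 12 h array lowest and the saline 12 h array highest. After a filter on dim probes, 24141 genes were tested, of which 12031 had a gene symbol. All 6 lung epithelial markers that were looked for (Sftpc, Sftpb, Sftpa1, Scgb1a1, Ager and Aqp5) were well above background in both channels of both 12 h arrays. Rag1 and Dntt of the thymus were not well above background on the 12 h arrays. Markers of other tissues varied, with skeletal muscle Myh4 above background in 0 and Ckm in 2 of the 4 channels, fat Plin1 in 0 and Adipoq in 1, thyroid Tg in 4, and oesophagus Krt4 in 0 and Krt13 in 4. The heart marker Myh6 was well above background there, on both arrays.

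Hspa1a, Slurp1, Retn and Ccn3 had the highest means among named genes called higher at 12 h than at 0 h, and Hsd11b2, Igsf10, Lyve1 and Vipr1 the lowest among those called lower. With limma (duration and pretreatment as terms, Benjamini-Hochberg adjusted p under 0.05 over all genes), 450 genes were higher (1.86% of those tested) and 479 lower (1.98%) in the average of both pretreatments. Under median centring the calls were 1824 higher and 3021 lower, and under scaling between arrays 79 higher and 53 lower, so that the share of calls that were higher was 48.4% with loess, 37.6% with median centring and 59.8% with scaling. Since a group is 1 array, the spread behind these p-values comes from how far the shift between pretreatments varies from one duration to the next. Without the saline 12 h array only 11 genes were higher and 2 lower. Without an array of 24 h the calls were 180 higher and 176 lower, and without one of 48 h 71 higher and 53 lower. Of the 929 genes called, 895 had the same sign on both 12 h arrays and 34 had opposite signs.

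Among the genes called higher, the largest mean belonged to Hspa1a, an inducible chaperone of the HSP70 family that refolds damaged proteins. Its log2 ratio was 5.33 on the saline 12 h array and 1.49 on the cobalt 12 h array, with a mean of 3.41 ± 0.52 (SE) and an adjusted p of 0.029 from limma. Without the saline 12 h array the estimate was 1.98 with an adjusted p of 0.16, and without either 48 h array the adjusted p was 0.052. The hypoxia channel of the saline 12 h array was saturated for this probe, so its ratio there is no exact fold. The probe lies on chromosome 20 at 3958091 to 3958150 in the rn3 build, and a second Hspa1a probe, which was not saturated, gave 2.74 and 0.93. Signals from the near-identical copies of the HSP70 family may not be separable by these probes.

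Fst, which binds activin, had 2.20 on saline and 2.96 on cobalt at 12 h. Ccn3, a matricellular protein, had 3.15 and 2.46, and Slurp1, a secreted Ly6 family protein, had 3.29 and 2.53. These 3 genes were also at least 1.69 on every array of the other durations, so they were high at every duration. Limma gave adjusted p-values of 0.001 for Fst, 0.0034 for Ccn3 and 0.015 for Slurp1. The Slurp1 call was lost under scaling between arrays (adjusted p 0.079, limma) and without the saline 12 h array, where its estimate was 2.08.

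Neuropeptide and hormone genes stood among the 10 highest named genes. Gal, which encodes galanin, had 2.30 on saline and 2.33 on cobalt (adjusted p 0.0011, limma; 0.18 in a fit of 4 means), and Sct, which encodes secretin, had 2.19 and 1.77 (adjusted p 0.0013). Ntrk2, the receptor of brain-derived neurotrophic factor, had 2.43 and 1.93. Retn, which encodes resistin, had 3.20 and 2.53 (adjusted p 0.04, limma), and without the saline 12 h array its estimate was 1.62 with an adjusted p of 0.36. Its call was also lost under scaling between arrays (adjusted p 0.077) and without either 48 h array (adjusted p 0.085). The neutrophil markers S100a8 and S100a9 had 1.70 and 1.56 on the saline 12 h array and at most 0.57 on the other saline ones. On cobalt they had -0.25 and 0.01 at 12 h and 0.43 to 1.11 at the other durations. The 16 neutrophil genes measured had a median of 0.22 on the saline 12 h array and -0.30 to 0.24 on the other saline arrays. Of these genes, 2 were 2-fold or more above each other saline duration. The part of neutrophils in the Retn values was not tested. Serpina3n, an acute phase protease inhibitor, had 2.95 and 1.34, with a mean of 2.15 (adjusted p 0.049, limma). Its estimate was 1.07 without the saline 12 h array (adjusted p 0.43) and 3.22 without the cobalt 12 h array (adjusted p 0.024), and its call was lost in 11 of the alternatives. On the saline 12 h array the 0 h channel of Serpina3n was itself 0.97 (log2) above its mean on the other saline arrays.

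Among the 10 lowest named genes, Hsd11b2, which inactivates corticosterone, had -2.80 on saline and -1.54 on cobalt, a mean of -2.17 ± 0.24 (SE, adjusted p 0.015 from limma). Vipr1, a receptor for vasoactive intestinal peptide, had -3.17 and -0.84. The vessel genes Lyve1 (lymphatic endothelium), Plvap (endothelial diaphragms) and Tmem100 had -1.82 and -2.25, -2.48 and -1.09, and -1.87 and -1.70. Igsf10, Cox8b, Vsnl1, Mfap4 and Mamdc2 completed the group, with means from -2.05 to -1.70. Their calls were lost in 5, 11, 7, 4 and 5 of the alternatives. Without the saline 12 h array Cox8b, Vsnl1, Mfap4 and Mamdc2 had estimates of -0.95, -1.06, -0.92 and -1.05, none of them called. Hsd11b2, Lyve1, Plvap, Tmem100 and Igsf10 lost their call there as well, with estimates of -1.86, -2.04, -1.65, -2.21 and -2.56. Vipr1 kept its call, with an estimate of -1.71. Both other probes of Cox8b disagreed, with means of -0.07 and -0.13. In bulk lung RNA, fewer cells of a type and less RNA per cell cannot be told apart.

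**Figure D1:**
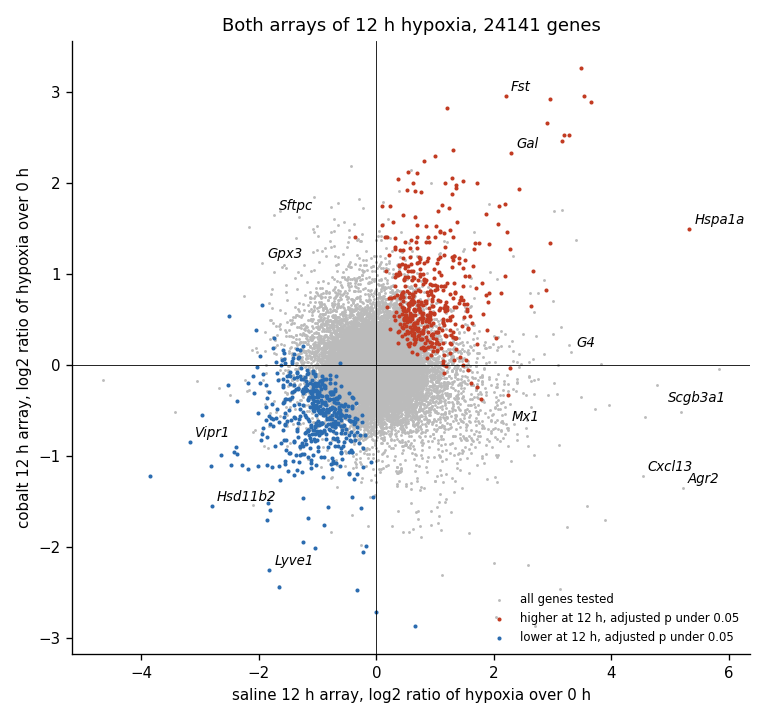
Log2 ratio of hypoxia over 0 h on the saline 12 h array (x axis) against the cobalt 12 h array (y axis), 1 grey point for each of 24141 genes, red and blue for the genes called higher and lower in the average. Hspa1a lies at 5.33 and 1.49, while Agr2 lies at 5.22 and -1.35 among genes that differ in sign.

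The 2 arrays agreed little over all genes. The correlation of their ratios across 24141 genes was 0.04, against 0.27 at 6 h, 0.15 at 24 h and 0.08 at 48 h; genes share array, dye and depth, so these values only describe the arrays. The same sign was found for 52.1% of the genes at 12 h. A change of 2-fold or more in the same direction on both 12 h arrays was found for 73 genes upward (0.302%) and 37 downward (0.153%). The counts upward were 135 at 6 h, 79 at 24 h and 63 at 48 h. With the scanner software's own log ratios the 12 h counts were 313 upward and 288 downward, and with median centring 25 and 105.

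Changes of 2-fold or more in opposite directions were commoner at 12 h than at other durations in these counts. They were found for 69 genes (0.286%), of which 49 were up on saline and down on cobalt. That direction held 12 genes at 6 h, 6 at 24 h and 13 at 48 h. The 69 genes became 502 with the software's log ratios and 1932 with median centring, so this count changed with the normalization. The log2 ratios had a standard deviation of 0.55 on the saline 12 h array, the widest of the 8, and 0.35 on the cobalt 12 h array, the narrowest.

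The 3 widest opposite pairs in each direction were Agr2, Cxcl13 and Scgb3a1, up on saline, and Sftpc, Scd and Gpx3, up on cobalt. Agr2, an endoplasmic reticulum protein of mucus-making cells, had 5.22 on saline and -1.35 on cobalt at 12 h. Cxcl13, which attracts B cells, had 4.53 and -1.21, and Scgb3a1, a secretoglobin of the airways, had 5.19 and -0.51, where the hypoxia channel of the saline 12 h array was saturated. Sftpc, the surfactant protein C gene, had -1.75 on saline and 1.64 on cobalt, but it was between -1.90 and -1.72 on the other saline arrays and between 0.96 and 1.65 on the other cobalt arrays. This probe was saturated in 9 of the 16 channels, among them the hypoxia channel of the saline 12 h array and the 0 h channel of the cobalt 12 h array. The other Sftpc probe, saturated in 0 channels, had 0.20 on saline and 1.07 on cobalt at 12 h, the same sign. Scd, a desaturase of fatty acids, had -1.64 and 1.70, and Gpx3, a secreted glutathione peroxidase, had -1.94 and 1.12. Scd and Gpx3 had opposite signs at the other durations too. So did Agr2, with 0.42, 1.34 and 2.71 at 6, 24 and 48 h on saline and -1.12, -0.41 and -0.52 on cobalt. Cxcl13 was negative on both at 24 h, with -0.33 and -0.31.

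To ask what sets 12 h apart, the 12 h ratios were compared with the mean of 6, 24 and 48 h of the same pretreatment. None of the 24141 genes (0%) passed an adjusted p of 0.05 in limma, and the lowest adjusted p was 0.37, for Ankrd1. At an unadjusted p under 0.05, 566 genes were higher and 449 lower, 4.2% of all tested. In the 0 h channel, which the labels give as the same control on each array of a pretreatment, 0 genes passed an adjusted p of 0.05 and 245 were higher and 321 lower at an unadjusted p under 0.05. The genes below are therefore described by their order, and not as changed.

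A gene was highest at 12 h in both pretreatments in 1325 cases (5.49%) and lowest in 1387 (5.75%). These counts were below those of 6 h (2877 and 2145) and of 48 h (2947 and 2976) and above those of 24 h (500 and 721). The list of heat shock and unfolded protein response genes had 8 of 29 measured members highest at 12 h in both pretreatments and 0 lowest. Of these 29 members, 9 were called higher than 0 h (Hspa1a, Dnaja1, Dnajb1, Hspb1, Hspe1, Hspa5, Hyou1, Manf and Atf4) and 0 lower, against 1.86% of all genes called higher.

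The 8 members that peaked at 12 h on both pretreatments were cytosolic and mitochondrial chaperones: Hspa1a, Dnaja1, Dnajb1, Hspa8, Hsp90aa1, Hsp90ab1, Hspb1 and Hspe1. Dnaja1, an HSP40 partner of HSP70, had 0.30, 1.55, 0.46 and 0.38 at 6, 12, 24 and 48 h on saline, and -0.06, 0.62, 0.10 and 0.36 on cobalt. Dnajb1, another HSP40, had 0.28, 1.20, 0.17 and -0.13 on saline and 0.21, 0.91, 0.32 and 0.56 on cobalt. Each array of 12 h was above the 3 others of its pretreatment for both genes.

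Hspa1a had 1.49, 5.33, 1.79 and 0.22 at 6, 12, 24 and 48 h on saline and 0.60, 1.49, 0.13 and -0.12 on cobalt. Its 12 h ratio exceeded the other durations by 2.72 ± 0.59 (SE), with an unadjusted p of 0.0027 and an adjusted p of 0.88 in limma. Ahsa2 and Chordc1, which work with HSP90, had the same order: 12 h exceeded the other durations by 0.84 ± 0.15 (adjusted p 0.88, limma) for Ahsa2 and by 0.70 ± 0.14 (adjusted p 0.88, limma) for Chordc1. Ahsa2 had 1.06 at 12 h on saline against -0.10 to 0.03 at the other durations, and 0.72 on cobalt against 0.03 to 0.25. The 3 Chordc1 probes had means at 12 h of 0.81, 0.35 and 0.17, and the last was highest on cobalt at 48 h, with 0.10 against 0.02 at 12 h.

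The endoplasmic reticulum chaperones Hspa5 and Hyou1 were called higher than 0 h without a 12 h peak on cobalt. Hspa5, the main one, had 1.20 at 12 h on saline against 0.13 to 0.75 at the other durations, but 0.61 on cobalt against 1.13 at 6 h. Hyou1 had 2.12 on saline and 0.80 on cobalt, where 6 h was 0.97. The median of the 29 list members was 0.97 on the saline 12 h array and 0.22 to 0.39 on the other saline arrays. On cobalt it was 0.13 at 12 h and 0.19 to 0.23 at the other durations. The median of 12 h minus other durations over the list was 0.27, and without the saline 12 h array it was 0.03.

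**Figure D2:**
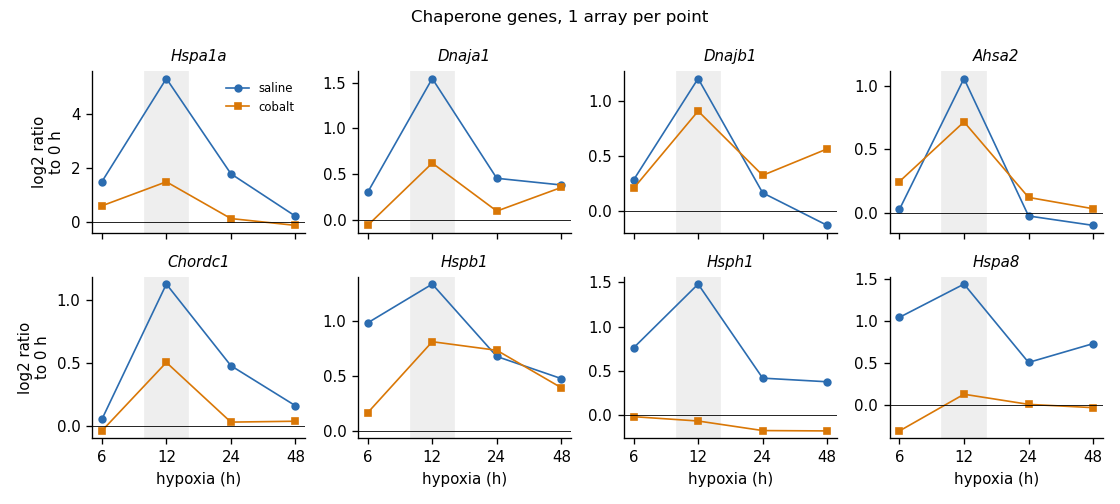
Log2 ratio of hypoxia over 0 h (y axis) at 6, 12, 24 and 48 h (x axis) for 8 chaperone or co-chaperone genes, 1 array per point, blue circles for saline and orange squares for cobalt, with 12 h shaded. All genes shown but Hsph1 have their highest cobalt point at 12 h, and all 8 have their highest saline point there.

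Promoters of 5 of these genes are shown because chaperone genes are known targets of the heat shock factor, whose sites hold inverted GAA units. The motif GAANNTTC was searched on both strands in the 250 bases before the gene start, in RefSeq sequences of GRCr8, and was chosen after the values were seen. It was present in 7.02% of all 27457 promoters, 5.13% of the 9832 promoters of genes tested and 10 of the 25 promoters of list members. Matches are in capitals.

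Hspa1a, chr20:3859506-3859755, plus strand: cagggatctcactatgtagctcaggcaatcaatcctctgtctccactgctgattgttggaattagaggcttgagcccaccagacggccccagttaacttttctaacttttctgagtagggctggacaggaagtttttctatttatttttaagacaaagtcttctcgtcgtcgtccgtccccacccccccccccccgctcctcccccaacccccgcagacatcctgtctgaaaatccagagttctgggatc

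Dnaja1, chr5:60638154-60638403, plus strand: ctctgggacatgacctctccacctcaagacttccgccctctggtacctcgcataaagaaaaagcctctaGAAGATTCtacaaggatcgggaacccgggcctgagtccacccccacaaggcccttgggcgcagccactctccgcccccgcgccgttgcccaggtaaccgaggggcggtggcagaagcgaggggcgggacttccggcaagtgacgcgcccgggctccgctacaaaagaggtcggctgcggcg

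Dnajb1, chr19:41431142-41431391, minus strand: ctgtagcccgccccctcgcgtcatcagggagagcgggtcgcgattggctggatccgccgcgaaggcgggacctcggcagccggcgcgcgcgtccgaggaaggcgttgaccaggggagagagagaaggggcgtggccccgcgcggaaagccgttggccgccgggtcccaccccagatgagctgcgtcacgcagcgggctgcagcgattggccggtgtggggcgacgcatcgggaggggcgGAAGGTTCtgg

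Hsph1, chr12:10427118-10427367, plus strand: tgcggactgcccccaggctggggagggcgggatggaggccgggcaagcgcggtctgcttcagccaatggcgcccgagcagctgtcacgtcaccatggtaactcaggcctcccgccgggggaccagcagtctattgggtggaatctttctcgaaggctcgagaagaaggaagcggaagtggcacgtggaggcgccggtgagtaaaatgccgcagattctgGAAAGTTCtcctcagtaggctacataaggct

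Hspb1, chr12:26432302-26432551, minus strand: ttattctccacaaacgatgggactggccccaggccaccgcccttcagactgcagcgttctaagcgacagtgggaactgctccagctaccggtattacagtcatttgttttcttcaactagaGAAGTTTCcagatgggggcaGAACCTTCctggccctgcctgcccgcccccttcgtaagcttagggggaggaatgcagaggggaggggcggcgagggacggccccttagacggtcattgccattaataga

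Dnaja1, Dnajb1 and Hsph1 each held 1 match, at 181, 11 and 31 bases before the start, Hspb1 held 2, at 129 and 109 bases, and the Hspa1a window held none. A match is only these letters in this window. The motif was present in 7.45% of the 161 promoters of genes called higher at 12 h and in 3.2% of the 250 promoters of genes called lower. The E-box CACGTG, a site of clock factors, was in 8.07% and 5.6% of these promoters, in 7.81% of those of genes tested and in 5.79% of all. The hypoxia response core ACGTG, which lies within the E-box, was in 24.8% and 18%, in 21.1% of those of genes tested and in 16.9% of all. The D-box TTATGTAA was in 0% and 0.8%, in 0.559% of those of genes tested and in 0.816% of all.

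Hormone genes and Phf11b were also highest at 12 h in both pretreatments. Sct had 2.19 at 12 h on saline against 0.72 to 1.62, and 1.77 on cobalt against 0.45 to 1.39. Retn had 3.20 on saline against -0.38 to 0.72, and 2.53 on cobalt against 1.27 to 2.18, with an unadjusted p of 0.014. Phf11b had 0.36 on saline against -1.42 to -0.89, and -0.16 on cobalt against -0.85 to -0.42. The other Phf11b probes had -0.122 and -0.09 on saline at 12 h. The last of them was highest on cobalt at 48 h, with -0.137 against -0.245 at 12 h.

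Among genes lowest at 12 h in both pretreatments, Bdnf, the neurotrophin whose receptor is Ntrk2, had -0.09 on saline against 0.88 to 1.03 and -0.10 on cobalt against 0.25 to 0.45. Prg2, the eosinophil major basic protein, had -1.13 on saline against -0.46 to 1.32, and -0.66 on cobalt against -0.42 to 0.73. Cyp2f4, a cytochrome P450 of club cells, had 0.66 on saline against 1.06 to 2.01 and -2.87 on cobalt against -1.80 to -1.63. Cyp26b1, which degrades retinoic acid, Fcgr3a, an Fc receptor, and Hsd17b12 departed by -0.48, -0.62 and -0.59. The adjusted p was 0.88 for each of these genes in limma.

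Against single durations, 12 h differed by an adjusted p under 0.05 only from 48 h, in 2 of 24141 genes (0.00828%). Gal was 2.60 ± 0.17 higher at 12 h than at 48 h (SE, adjusted p 0.019, limma). It had 3.45, 2.30, 0.80 and -0.17 at 6, 12, 24 and 48 h on saline and 3.05, 2.33, 0.76 and -0.40 on cobalt, falling at each step in both. Ankrd1, a muscle and stress-responsive nuclear protein, was lower at 12 h (difference -3.04 ± 0.18, SE, adjusted p 0.017, limma). It had -0.52, -0.29, 1.30 and 2.86 on saline and 0.59, 0.65, 2.63 and 3.59 on cobalt. Against 6 h and against 24 h 0 genes passed, with 657 higher and 702 lower, and 295 and 180, at an unadjusted p under 0.05. Both calls against 48 h were lost (0 genes) without an array of 6 or 48 h or without the saline 12 h array, Gal also without an array of 24 h, and 27 genes passed without the cobalt 12 h array.

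Fbn1, the fibrillin of elastic fibres, had -1.11 on saline and -0.31 on cobalt at 12 h, and 0.59 and 0.94 at 48 h. Col1a2 and Col3a1, fibrillar collagen genes, were called lower than 0 h at 12 h, with means of -0.81 ± 0.15 (SE, adjusted p 0.04) and -0.66 ± 0.13 (SE, adjusted p 0.043) from limma. In contrast Lox, which cross-links collagen, was called higher, with 1.71 and 2.00. Of 32 matrix genes, 6 were called higher and 3 lower than 0 h, against 1.86% and 1.98% of all genes. The list's median was -0.47 on the saline 12 h array and 0.38 on the cobalt 12 h array.

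**Figure D3:**
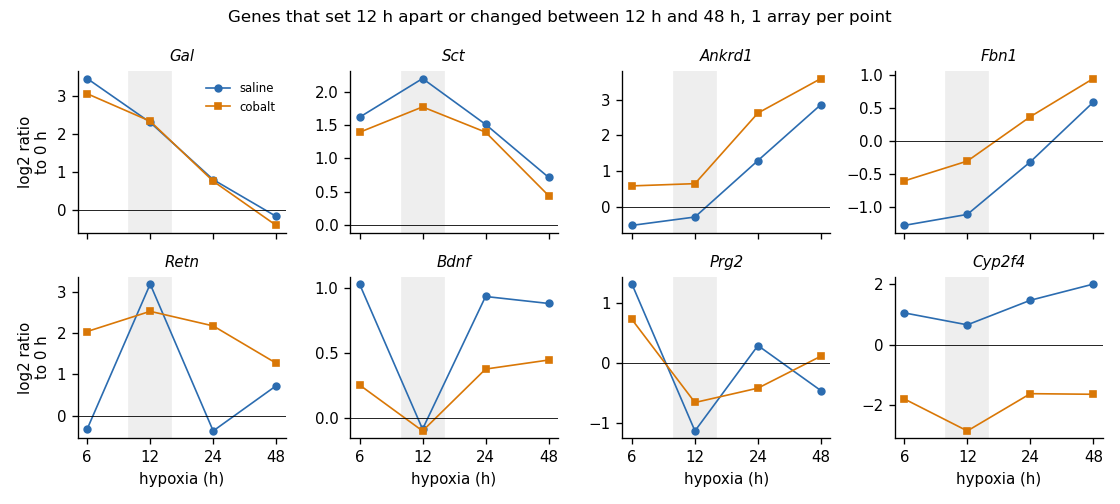
Log2 ratio of hypoxia over 0 h (y axis) at 6, 12, 24 and 48 h (x axis) for 8 genes, 1 array per point, blue circles for saline and orange squares for cobalt, with 12 h shaded. Gal falls from 6 to 48 h and Ankrd1 rises after 12 h on both pretreatments, and Bdnf dips at 12 h.

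The counts of the following lists stand beside 1.86% of all genes called higher and 1.98% called lower. Smooth muscle contraction genes had 6 of 14 members called higher and 1 lower than 0 h. Their median was 0.45 on the saline 12 h array against 0.61 to 0.88 at the other durations, and 5 members were negative there. On cobalt the median was 1.02 at 12 h against 1.03 to 1.27 at the other durations. Des (desmin) had 1.47 on saline and 2.02 on cobalt, and Actg2 had 1.28 and 2.06. Activin and BMP genes had 6 of 30 higher and 3 lower, with Tgfb3 at 1.30 and 2.37 and Bmp6 at -2.01 and -0.52. Endothelial genes had 2 of 33 higher and 6 lower. Their median on saline was -0.75 at 12 h and -0.79 to -0.48 at the other durations. On cobalt it was 0.003 at 12 h and 0.06 to 0.19 at the other durations. At 12 h 27 of the 33 were negative on saline and 17 were positive on cobalt, against 11326 and 11285 of all 24141 genes. In the acute phase list 4 of 18 members were higher and none lower, led by Serpina3n, and the kininogen gene Kng1 had 2.22 and 1.47. Immediate early genes had 4 of 24 higher and 0 lower, and T and NK cell genes 0 of 20 higher and 2 lower. Macrophage and monocyte genes had 0 of 24 higher and 3 lower. Among these Adgre1 had -0.74 on saline and -1.08 on cobalt. Lyz2, also called lower, had -1.57 on saline and 0.14 on cobalt, and its probe was saturated in 8 channels. All 39 cell cycle genes were negative on the cobalt 12 h array, against 12856 of all 24141 genes. Their median there was -0.80, against -0.73 to -0.25 at the other cobalt durations. On the saline 12 h array 30 were positive, against 12815 of all genes. The median there was 0.35, against -0.24 to 0.72 at the other saline durations. Of the 39 genes, 2 were called lower.

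Of 28 HIF and oxygen-sensing genes, 4 were higher (among them Bnip3, P4ha2 and Higd1a) and 2 lower (Vegfa and Epas1). Vegfa, the vessel growth factor, had -1.76 on saline and 0.19 on cobalt at 12 h, with -1.47 to -1.31 on the other saline arrays. Slc2a1, a glucose transporter, had 1.42 and 0.71 (adjusted p 0.043, limma). Of 21 glycolysis genes 3 were higher and 1 lower, with a median of 0.47 over their 12 h means. The counts of called HIF and glycolysis genes stand beside 1.86% of all genes called higher and 1.98% called lower. On both 12 h arrays 17 glycolysis genes were positive, against 6269 of all 24141 genes. Their median on saline was 0.40 at 12 h and 0.18 to 0.89 at the other durations. On cobalt it was 0.49 at 12 h and 0.51 to 0.88 at the other durations. Hmox1, which degrades haem, had 0.67 and 0.68, Mt1, a metallothionein, 2.25 and 0.21, and the glucocorticoid-responsive Fkbp5 2.32 and 0.05. Spp1 (osteopontin) had 3.17 and 1.71 and Ccl2, a monocyte chemokine, 1.47 and 1.07, of which only Ccl2 passed (adjusted p 0.021, limma).

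Circadian clock genes followed no common order at 12 h. None of 18 was called against 0 h and none was highest or lowest at 12 h in both pretreatments. Bmal1, an activator of the clock, had 0.63 on saline and 0.70 on cobalt, and Nr1d1, which represses Bmal1, had -1.90 and 0.15. Per1, Per2 and Per3, repressors of the clock, had -0.46 and 0.43, 0.55 and -0.34, and -0.65 and -0.53. Dbp had -0.83 and -0.54.

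The saline 12 h array exceeded the other arrays of its pretreatment in more genes than any other array did. It was 2-fold or more above each of the other saline durations for 167 genes (0.692%) and below for 14 (0.058%). The cobalt 12 h array was above each other cobalt duration for 5 genes (0.0207%) and below for 13 (0.0539%). The upward saline counts at 6, 24 and 48 h were 70, 9 and 48. The 0 h channel of the saline 12 h array correlated with the other saline arrays at 0.992 to 0.998 across genes.

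Interferon-stimulated genes made up the most members of a list in that set, 15 of 26. Their median was 0.76 on the saline 12 h array and -1.05, -0.71 and -0.56 at 6, 24 and 48 h, and in the 0 h channel the median departure was -0.03. On cobalt the median was -0.50 at 12 h, -0.49 at 6 h, 0.43 at 24 h and 0.34 at 48 h. Mx1, an antiviral GTPase, had -1.68, 2.19, -0.74 and -0.75 on saline and -0.91, -0.54, 0.21 and 0.55 on cobalt. Isg15, a ubiquitin-like protein, had 2.41 on the saline 12 h array and -1.52 to -0.86 on the other saline arrays. None of the 26 was called in the average, and leaving out the saline 12 h array turns the median of 12 h minus other durations from 0.59 to -0.48.

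Some airway mucous, B cell and ciliated cell markers were also high on this array. Myh6, of heart muscle, had 2.85 there and 3.73 at 48 h on saline. Of the club and airway secretory list, 4 of 14 were 2-fold above the other saline durations, among them Muc5ac and Scgb3a1, and 1 was 2-fold below them, while Scgb1a1 had 1.01 at 12 h and 1.96 at 6 h. Of 12 B and plasma cell genes, 4 were, with the immunoglobulin joining chain gene Jchain at 2.68 against -0.89 to 1.28, while Fcer2 had -1.11 against -2.10 to -1.29. All 17 cilia genes were positive on the saline 12 h array, against 12815 of all 24141 genes, and 1 was 2-fold above the other saline durations. Their median there was 1.55 against 0.82 to 1.03 on the other saline arrays, while Dnah11 had 0.24 and, at 48 h, 0.61. On the cobalt 12 h array all 17 were negative, against 12856 of all genes. The cobalt median was -0.69 at 12 h and -0.49 to -0.26 at the other durations. Type I cell genes had a median of -1.23 on the saline 12 h array against -0.31 to -0.04 on the other saline arrays. Ager, their best-known marker, had -2.20 against -1.04 to -0.07. Type II cell genes had a median of -0.89 there against -0.68 to -0.32. The type I median on cobalt was -0.27 at 12 h and -0.67 to 0.02 elsewhere. Whether the mix of airway and alveolar tissue in the saline 12 h sample has a part in these values was not tested.

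**Figure D4:**
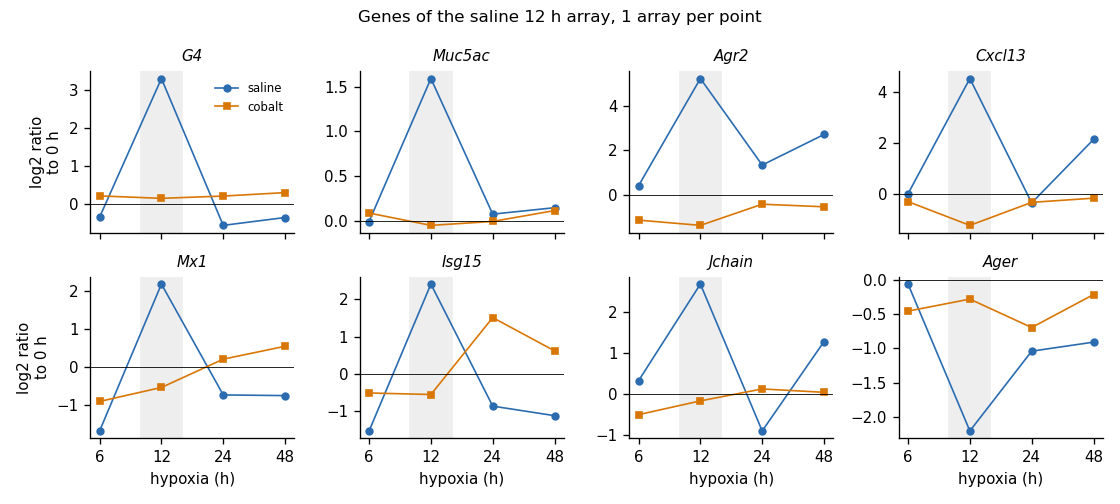
Log2 ratio of hypoxia over 0 h (y axis) at 6, 12, 24 and 48 h (x axis) for 8 genes, 1 array per point, blue circles for saline and orange squares for cobalt, with 12 h shaded. G4, Muc5ac, Agr2, Cxcl13, Mx1, Isg15 and Jchain have their highest saline point at 12 h, and Ager its lowest.

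The difference between pretreatments in the 12 h departure was tested in a fit of 4 means, with the spread between 6, 24 and 48 h as error. In that test 1 of 24141 genes (0.00414%) passed an adjusted p of 0.05, and 545 were higher and 803 lower in cobalt at an unadjusted p under 0.05. The gene was G4, whose probe lies on chromosome 20 at 3758861 to 3758920 in rn3, with -0.35, 3.32, -0.57 and -0.36 at 6, 12, 24 and 48 h on saline and 0.21, 0.15, 0.21 and 0.30 on cobalt. The cobalt departure minus the saline one was -3.83 ± 0.23 (SE, adjusted p 0.0059, limma). The next by p were Muc5ac and Muc4, mucins of the airways, Gbp4, an interferon-induced GTPase, Myoc and Ap4m1, with differences from -2.53 to -1.64 and adjusted p-values from 0.093 to 0.27. In the cobalt 12 h hypoxia channel, Muc5ac, Muc4, Gbp4 and Myoc were not well above background. Of the 4 Muc4 probes, the others had 1.40, 0.13 and -0.06 on the saline 12 h array. The G4 call was lost with the software's log ratios, with the deposited series matrix values and without the cobalt 24 h array.

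**Figure D5:**
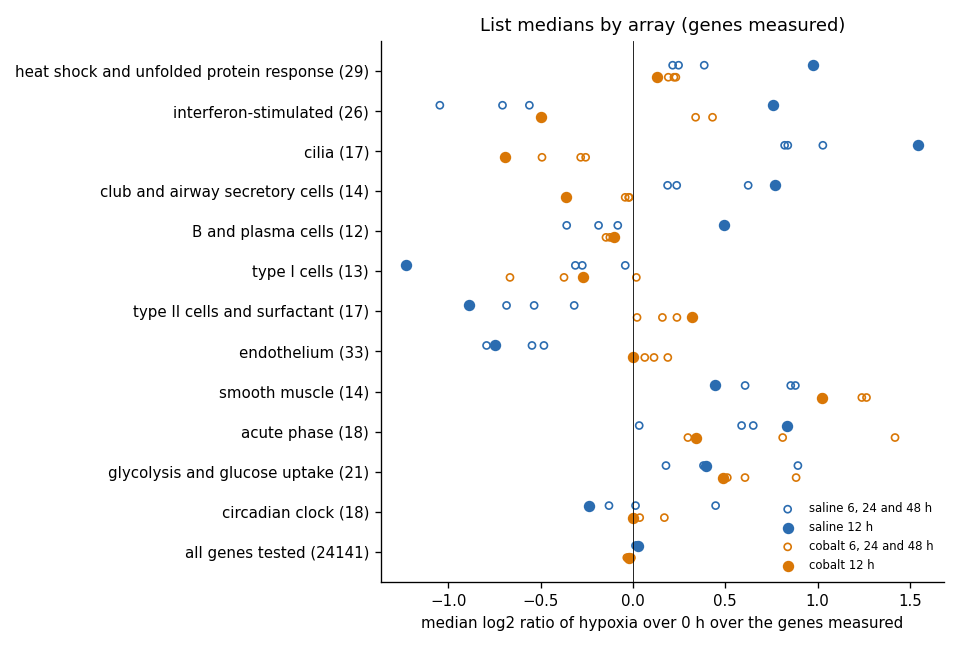
Median log2 ratio of hypoxia over 0 h (x axis) of the genes measured in 12 lists and of all genes tested (y axis, with the number measured), filled for 12 h and open for 6, 24 and 48 h, blue for saline and orange for cobalt. Among the lists, the filled blue points of the heat shock, interferon, cilia, club, B cell and acute phase lists lie to the right of the open blue points. Those of the type I, type II, smooth muscle and clock lists lie to the left.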

How the data were processed

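Total lung RNA, amplified and labelled with Cy3 or Cy5, was hybridised to Agilent 2-colour arrays of 60-base probes. Per the file headers, images were read with Agilent Feature Extraction 9.5.1.1, and the deposited files hold intensity in scanner units and, per the file headers, the log10 ratio of red over green. Set against the scanner values, the authors' deposited value table was read as log2 ratios of hypoxia over 0 h, centred; how the authors made it is not given in the sources used here. Probe positions are in rn3.

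In limma 3.58.1 (R 4.3.3), normexp with an offset of 50 corrected the mean intensity and a loess curve was fitted to each array, with control and outlier spots at weight 0; channel levels were set by Aquantile. Probes entered where 4 or more of the 8 arrays had a channel well above background, and the brightest probe stood for a gene. lmFit and eBayes with a variance trend were used, with 3 residual degrees of freedom. In simulated data over 24141 genes, 200 genes at a time were changed by 1 or by 2 (log2). The simulation was revised once so that the spread of genes followed limma's prior instead of the shrunken estimates, which understated it. The average at 12 h recovered 76.5% and 99.5% of the changed genes. The departure of 12 h recovered 60.5% and 96%, and the difference between pretreatments 0% and 60.5%. In the real data the test between pretreatments takes the spread between the other durations as error, which is wide for genes that change with duration. The SE of that difference was 2.14 for Gal and 1.91 for Ankrd1, against a median of 0.29 over all genes. The SE of the 12 h departure was 0.59 for Hspa1a, which departed by 4.16 on saline and 1.29 on cobalt. For Retn the SE was 0.60, with departures of 3.19 and 0.70. Gal and Ankrd1 had SEs of 0.14 and 0.15 for the 12 h departure, against a median of 0.13 over all genes. Recovery for genes with a wide SE, in either of these comparisons, is not given by these shares.

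Named genes were the 10 highest and 10 lowest called against 0 h, the 6 first by p above and below the other durations, the 6 first by p between pretreatments, the 3 widest opposite pairs each way, the first 3 by p of each list and a set of known genes. Isg15, Jchain, Hspa5, Hyou1, Hsph1, Actg2, Lox, Col1a2, Col3a1, and the other list members and markers were named after their values were seen. One gene that this rule names is not reported here. The members and lists were chosen with earlier results of these data known. The number of arrays limits the precision, and p-values measure only the spread between these arrays. Alternatives were other log ratios, centring, scaling, background, filters, probe rules and models, and leaving out each array.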

Additional observations from a re-analysis of the deposited data

Results flagged for a closer look

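The difference between cobalt and saline in the 12 h departure of G4 was tested and came to -3.83 on the log2 scale (limma, adjusted p 0.0059).

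The 6 genes of the widest opposite pairs had 1 array per pretreatment at 12 h, so their difference at 12 h alone was not tested. The test used for G4 covered all genes and called none of these 6. The difference in the 12 h departure was -4.39 for Agr2, -4.88 for Cxcl13 and 1.54 for Gpx3. Cobalt minus saline at 12 h was -6.57 for Agr2, -5.75 for Cxcl13 and -5.70 for Scgb3a1. The Scgb3a1 probe was saturated in the hypoxia channel of the saline 12 h array, so its difference is not exact. Cobalt minus saline was 3.39 for Sftpc, 3.34 for Scd and 3.06 for Gpx3. The Sftpc probe was saturated in 9 of 16 channels, so 3.39 is not exact either, and the other Sftpc probe, saturated in 0 channels, gave 0.87.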

How the results depend on the processing

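Counts of genes higher and lower than 0 h at 12 h, 450 and 479, moved to 1824 and 3021 under median centring and to 79 and 53 under scaling between arrays. Leaving out 1 array gave 11 to 463 higher and 2 to 427 lower. Genes above the other durations numbered 1 in the fit of 4 means, and leaving out 1 array gave 0 to 40 above and 0 to 1 below, the 40 without the cobalt 12 h array. Leaving out 1 array gave 0 to 31 genes against 6 h, 0 to 1 against 24 h and 0 to 27 against 48 h; against 48 h there was 1 under median centring and 0 under scaling. Between pretreatments the count was 0 with the software log ratio and with the series matrix, 2 without a filter and 2 with the looser filter, and 0 to 5 leaving out 1 array. The 0 h channel gave 12 genes in the fit of 4 means, an alternative added after seeing the data, as are the following counts. With the software log ratio, genes past 2-fold on both 12 h arrays numbered 313 higher, 288 lower and 502 opposite; with the series matrix they numbered 318, 293 and 507, and under median centring 25, 105 and 1932. Genes highest at 12 h numbered 2153 without a filter and 877 with the strict filter, and genes lowest 2497 under median centring. The interferon list's median departure, 0.59, was -0.48 without the saline 12 h array and 1.71 without the cobalt 12 h array. Of the 20 genes named against 0 h, 5 kept their call under every alternative run, and none changed direction. The cause of these shifts was not tested.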
